A study of Arabidopsis thaliana with 4 samples.

Results

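The direct difference between *AtBBD1* overexpression plants and *atbbd1* knock-out plants after osmotic stress was measured as the ratio of their FPKM values (fragments mapped to a gene, divided by its length and by the size of the library), gene by gene. Genes with at least 1 FPKM in either library were kept, which left 15741 of the 27655 genes in the deposited table, and a ratio could be given for 15737 of them. The table holds 4 leaf mRNA libraries of *Arabidopsis thaliana* plants grown for 3 weeks, 1 for each condition. OX5-4 plants carry an *AtBBD1* overexpression transgene in the wild-type background. The labels name it p35S:AtBBD1, while the study's methods describe a promoter of cassava vein mosaic virus. The *atbbd1* plants come from 1 T-DNA insertion line. Both lines and the wild type (WT) received 20% polyethylene glycol (PEG) for 6 h, by watering as the study describes it, and 1 more WT library was taken at 0 h without PEG. Each library is a pool of leaves from several plants of a genotype, and the labels call the plants seedlings. The WT library after PEG serves below only as the level that lies between both lines or outside them.

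PEG lowers the water potential around the roots, and the leaf answers by making the hormone abscisic acid (ABA). ABA binds receptors of the PYR/PYL family, the occupied receptors block clade A protein phosphatases 2C (PP2Cs), and the SnRK2 kinases that these phosphatases hold in check become active. The kinases phosphorylate bZIP factors of the ABF group, which bind the ABA-responsive element (ABRE) in the promoters of genes for late embryogenesis abundant (LEA) proteins, dehydrins, wax and sugar enzymes, and also of the PP2C genes themselves, which closes a negative feedback loop. Jasmonic acid (JA), a hormone of wounding and defence, acts through MYC factors and is also made under water deficit. *AtBBD1* encodes a bifunctional nuclease.

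Because every condition is a single library, replicate error is unknown, and results are given as sizes of differences with no p-value. The spacing of low FPKM values gave estimated totals of 17692000 mapped fragments for OX5-4 and 16991500 for *atbbd1*, and 15724500 and 15323000 for WT after PEG and at 0 h. Intervals in parentheses after a ratio are exact 95% binomial intervals on the recovered reads and cover counting error only, not the spread between plants or library preparations. Where a gene was listed at 0, a floor of 3 reads in that library gave the ratio written as at least, which does not cover a failed estimate in the deposited table. The 95% interval of such a gene starts below that ratio. Transcripts of green tissue were plain in both lines. All 24 nuclear photosynthesis genes listed were kept, while none of 6 root markers and none of 6 seed genes reached 1 FPKM in either line. Of 9 flower and meristem markers 1 was kept, only through *atbbd1*. The median log2 ratio of OX5-4 over *atbbd1* was 0.11 over all genes kept, and list medians below are to be read against that value. Over the same genes, 61.4% of the ratios were above 1 and 38.4% below it.

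*AtBBD1* (AT1G75380) itself was at 631 FPKM in OX5-4, against 36.6 FPKM in *atbbd1* (17.2-fold higher, interval 16.2 to 18.3). WT leaves were at 541 FPKM after PEG and 95.5 FPKM at 0 h, so the WT level after PEG lay close to that of OX5-4. In *atbbd1* the 36.6 FPKM came from 1162 reads, which gene-level values cannot place along the transcript. The paralog *AtBBD2* (AT1G19660) was at 229 FPKM in OX5-4, 140 FPKM in *atbbd1* and 198 FPKM in WT after PEG, 1.63-fold higher in OX5-4 than in *atbbd1* (1.57 to 1.69). The annotated neighbour AT1G75370, a Sec14p-like phosphatidylinositol transfer protein gene, was at 52.3 FPKM in OX5-4, against 37.4 FPKM in *atbbd1* (1.4-fold higher, interval 1.31 to 1.49). *bZIP44*, the neighbour on the other side, stayed under 1 FPKM in both lines.

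The difference between both lines was one-sided. In OX5-4, 1112 genes (7.07% of 15737) were at least 2-fold higher than in *atbbd1*, and 166 (1.05%) were at least 2-fold lower. At 4-fold the counts were 412 higher (2.62%) and 21 lower (0.133%), and at 10-fold 174 and 3. The intervals lay beyond 1 for 1094 of the 1112 and for 149 of the 166. Organelle genes, 4 of the higher and 5 of the lower, had no recovered reads and so no interval, and they are not in these counts. Dividing out the median shift left 948 higher and 237 lower. A gene under 1 FPKM in one line passed the filter through the other line alone, and such a gene differs by the choice itself. This holds for 430 of the 1112, which were under 1 FPKM in *atbbd1*, and for 97 of the 166, which were under 1 FPKM in OX5-4, so the counts and medians of lists below are descriptions of the genes kept. List counts below are to be read against the 7.07% higher and 1.05% lower over all genes. Genes of low level made up most of the lower side, with 100 of the 166 at 1 to 3 FPKM in their higher library. Of all genes at that level, 11.3% were higher and 3.55% lower, and of those with 100 FPKM or more 8.23% were higher and 0.246% lower.

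**Figure D1:**
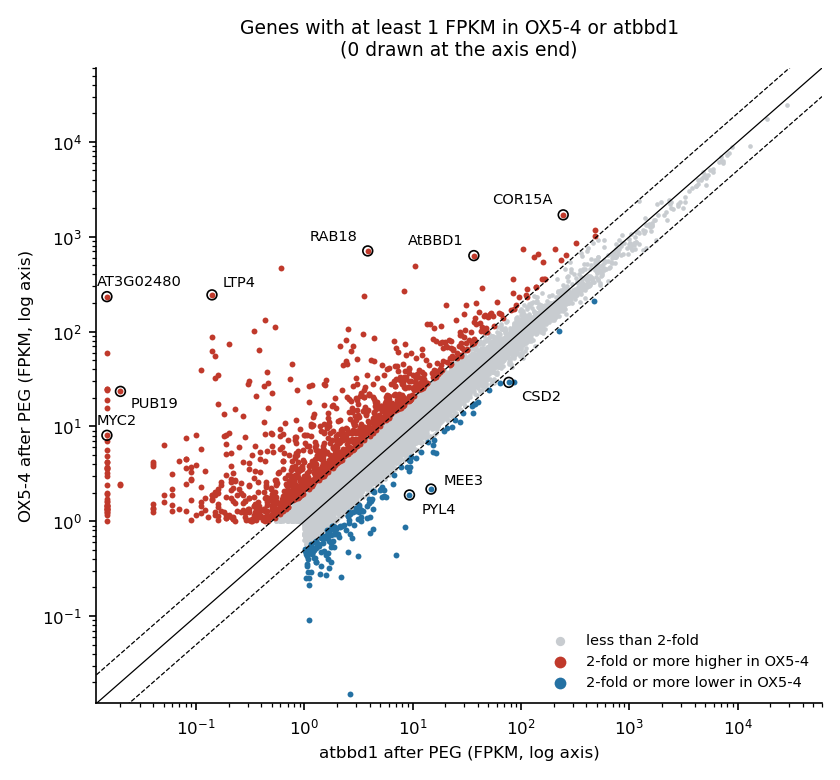
FPKM of every gene kept in OX5-4 (vertical axis) against *atbbd1* (horizontal axis), both on log axes, with the solid line at equality and the dashed lines at a 2-fold difference. The 1112 red points above the band fan out to *atbbd1* values near 0, while 21 of the 166 blue points lie at 4-fold or more below equality, and named genes are circled.

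Wild-type plants after PEG fell between both lines for 992 of the 1112 genes (89.2%) and for 130 of the 166 (78.3%), against 50.1% of all genes kept. A wider gap leaves more room for a value in between, so these shares describe the sets and were not tested. In the 1112 genes, WT lay above both lines for 103 genes and below both for 17. On a log scale that runs from 0 at OX5-4 to 1 at *atbbd1*, the median WT position was 0.39 over the higher genes that WT fell between. Over all genes kept that WT fell between it was 0.42, so a place nearer to OX5-4 was not particular to the higher genes. Genes at 0 in *atbbd1* have no position, which left 953 of the 992. In the single steps, 398 of the 1112 genes (35.8%) passed 2-fold only in the step between WT and *atbbd1*, 103 (9.26%) only in the step between OX5-4 and WT, and 218 (19.6%) in both. The other 393 (35.3%) passed 2-fold only when both lines were set against each other. Many genes with wide ratios were also higher in WT after PEG. Of the 174 genes at 10-fold or more, 67.2% reached at least 2 times their 0 h value in WT after PEG, against 16.6% of all genes kept, and this step includes the time of day as well as PEG.

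**Figure D2:**
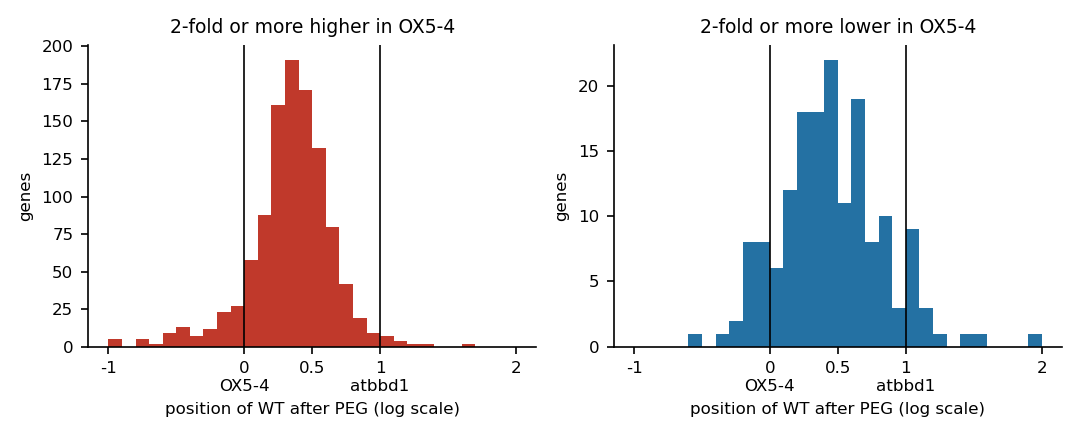
Number of genes by the position of WT after PEG on a log scale where 0 is the OX5-4 level and 1 the *atbbd1* level, for genes higher (left) and lower (right) in OX5-4 by 2-fold or more, with values beyond the axis drawn in the end bars. Most WT values lie between the vertical lines, and the median of those in between was 0.39 on the left and 0.45 on the right.

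The 15 widest ratios among genes with at least 10 FPKM were led by lipid transfer proteins, LEA proteins and regulators of ABA signaling. *LTP4*, a lipid transfer protein of the cell surface, was at 243 FPKM in OX5-4, 0.14 FPKM in *atbbd1* and 15 FPKM in WT. Only 2 reads stood behind its level in *atbbd1*, so its ratio of 1738 has a wide interval (475 to 14173). Its tandem copy *LTP3* was at 468 FPKM in OX5-4, 0.61 FPKM in *atbbd1* and 65.6 FPKM in WT, 767-fold higher in OX5-4 than in *atbbd1* (388 to 1770). The copies can share reads, so the split between them is uncertain. *PUB19*, a U-box ubiquitin ligase that dampens ABA and drought responses, was at 23.4 FPKM in OX5-4 and 5.41 FPKM in WT, and 1 read gave its 0.02 FPKM in *atbbd1* (ratio 1168, 172 to 38009). AT3G02480, which encodes a LEA family protein, was at 233 FPKM in OX5-4, listed at 0 in *atbbd1* and at 15.7 FPKM in WT. At the 3-read floor it was at least 726-fold higher in OX5-4 than in *atbbd1*, with an interval that starts at 590.

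Regulators that restrain ABA signaling stood beside its effector genes in this group. *HAI1*, a clade A PP2C, was at 62.7 FPKM in OX5-4, 0.14 FPKM in *atbbd1* and 18.5 FPKM in WT, 448-fold higher in OX5-4 than in *atbbd1* (190 to 1370). *HAI2* of the same clade was at 32.5 FPKM in OX5-4, 0.15 FPKM in *atbbd1* and 11 FPKM in WT (ratio 216, 89.9 to 649). For both phosphatase genes the whole interval lay far above 1. *AFP1*, whose product binds the bZIP factor of seed and seedling ABA responses and promotes its breakdown, was at 55.7 FPKM in OX5-4, 0.15 FPKM in *atbbd1* and 18 FPKM in WT, 371-fold higher in OX5-4 than in *atbbd1* (147 to 1388). Among effectors, *LTI65* (*RD29B*) was at 87.7 FPKM in OX5-4, 0.14 FPKM in *atbbd1* and 15.8 FPKM in WT, 626-fold higher in OX5-4 than in *atbbd1* (277 to 1994). *LEA7* was at 59.1 FPKM in OX5-4, listed at 0 in *atbbd1* and at 14.8 FPKM in WT, at least 302-fold higher at the 3-read floor, with an interval that starts at 246. *LEA4-5* was at 73.4 FPKM in OX5-4, 0.20 FPKM in *atbbd1* and 11 FPKM in WT (ratio 367, 128 to 1824). WT was between both lines for all 6 of these genes, and nearer to OX5-4 on a log scale for the 5 with reads in *atbbd1*.

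The rest of the 15 had less known roles. *DIP2*, annotated as an E3 ubiquitin ligase, was at 102 FPKM in OX5-4, 0.34 FPKM in *atbbd1* and 31.9 FPKM in WT. AT2G41190, a transmembrane amino acid transporter family gene, was at 110 FPKM in OX5-4, 0.54 FPKM in *atbbd1* and 22.3 FPKM in WT. AT5G15500, an ankyrin repeat protein gene, was at 35 FPKM in OX5-4, 0.16 FPKM in *atbbd1* and 5.94 FPKM in WT. These genes followed the same order of lines, and so did AT5G39520, a gene of unknown function, with 39.4 FPKM in OX5-4, 0.11 FPKM in *atbbd1* and 3.71 FPKM in WT. The defensin *PDF1.2c* broke the pattern, since WT (118 FPKM) was almost level with OX5-4 (133 FPKM), against 0.43 FPKM in *atbbd1*. *AFP1*, *LEA7* and AT5G39520 overlap an annotated neighbour, from whose reads theirs cannot be told apart without strand.

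The 5 most abundant genes with a 2-fold call were higher by smaller factors and from many reads. *COR15A*, a chloroplast protein that protects membranes in cold and drought, was at 1698 FPKM in OX5-4, 245 FPKM in *atbbd1* and 939 FPKM in WT, 6.94-fold higher in OX5-4 than in *atbbd1* (6.76 to 7.12). The acidic dehydrin *ERD14* was at 868 FPKM in OX5-4, 319 FPKM in *atbbd1* and 591 FPKM in WT, 2.72-fold higher (2.64 to 2.8). The lipid transfer protein gene *LP1* (*LTP1*) was 3.61-fold higher (3.46 to 3.76), the glycine-rich protein gene *GRP-3* 2.44-fold (2.38 to 2.5) and AT1G09310, a gene of unknown function, 2.15-fold (2.09 to 2.2). WT was between both lines for all 5, and AT1G09310 overlaps an annotated neighbour.

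**Figure D3:**
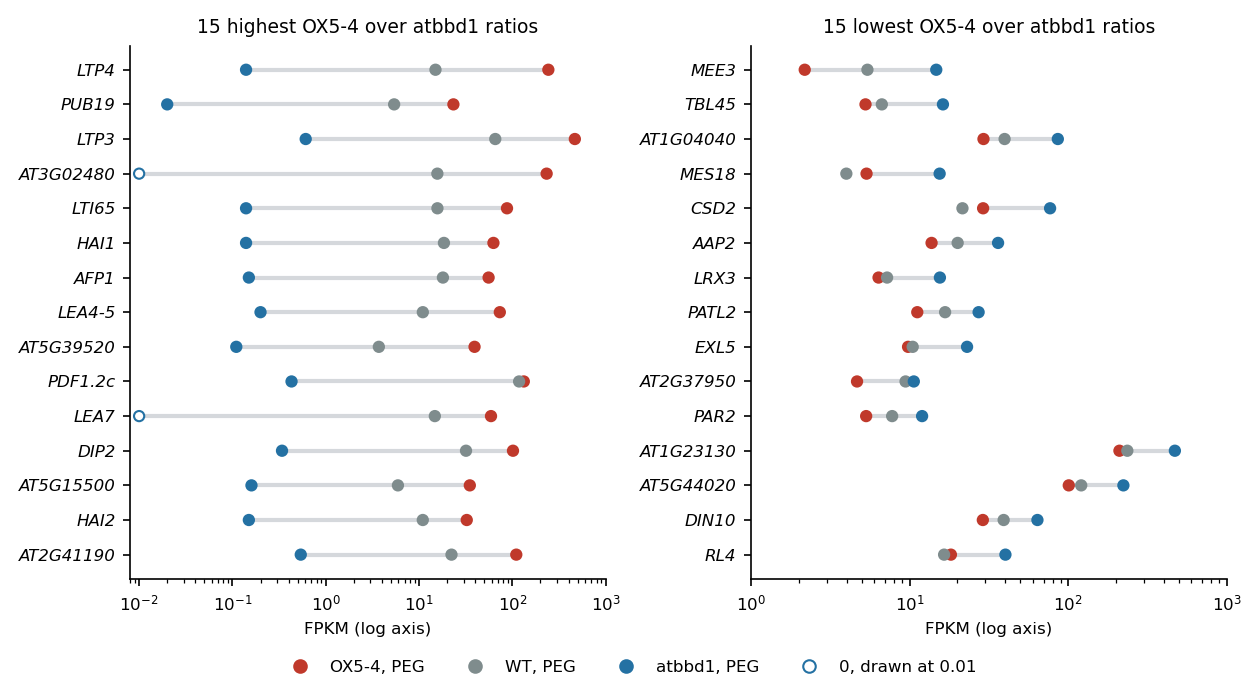
FPKM in OX5-4 (red), WT (grey) and *atbbd1* (blue) after PEG, on log axes, for the 15 genes with the highest (left) and the 15 with the lowest (right) OX5-4 over *atbbd1* ratio among genes of at least 10 FPKM in the higher line. On the left WT lies between both lines for every gene and spans run over more than 2 decades, from 204-fold for AT2G41190 to 1738-fold for *LTP4*, while on the right they are short, from 2.21-fold for *RL4* to 6.76-fold for *MEE3*.

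Since bZIP factors of the ABA pathway bind a core of the letters ACGTG, the 300 bases before each annotated gene start were read from the TAIR10.1 genome and searched on both strands. For reference, 25.8% of the genes kept and 25.6% of all annotated genes had the core in this window. Of the 15 genes with the highest ratios 12 had it, and of the 15 with the lowest 1 did. Windows are printed 5′ to 3′ on the strand of the gene and end at the base before its start. Cores are in capitals, and a CACGTG, which holds the core on both strands, counts once. The first set is shown because its windows hold several cores.
*PUB19* (chr1:22197966-22198265, plus strand): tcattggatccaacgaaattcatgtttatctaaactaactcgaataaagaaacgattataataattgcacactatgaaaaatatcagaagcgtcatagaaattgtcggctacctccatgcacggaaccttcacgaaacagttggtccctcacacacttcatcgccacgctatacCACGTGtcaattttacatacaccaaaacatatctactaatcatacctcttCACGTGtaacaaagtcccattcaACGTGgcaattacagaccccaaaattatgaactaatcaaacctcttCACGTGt
*LTI65* (chr5:21236721-21237020, plus strand): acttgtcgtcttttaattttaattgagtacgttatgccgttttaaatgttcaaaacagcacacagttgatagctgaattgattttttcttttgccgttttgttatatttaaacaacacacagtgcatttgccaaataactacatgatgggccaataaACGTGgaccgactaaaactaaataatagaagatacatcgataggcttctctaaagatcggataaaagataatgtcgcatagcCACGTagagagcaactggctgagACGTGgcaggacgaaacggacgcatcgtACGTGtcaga
*LEA7* (chr1:19619424-19619723, plus strand): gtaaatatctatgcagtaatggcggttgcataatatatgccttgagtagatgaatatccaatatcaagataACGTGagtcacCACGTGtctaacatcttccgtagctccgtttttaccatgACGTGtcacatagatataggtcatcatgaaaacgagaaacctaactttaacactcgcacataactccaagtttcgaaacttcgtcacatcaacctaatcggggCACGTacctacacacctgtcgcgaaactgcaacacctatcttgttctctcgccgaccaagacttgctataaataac
*HAI2* (chr1:2282829-2283128, minus strand): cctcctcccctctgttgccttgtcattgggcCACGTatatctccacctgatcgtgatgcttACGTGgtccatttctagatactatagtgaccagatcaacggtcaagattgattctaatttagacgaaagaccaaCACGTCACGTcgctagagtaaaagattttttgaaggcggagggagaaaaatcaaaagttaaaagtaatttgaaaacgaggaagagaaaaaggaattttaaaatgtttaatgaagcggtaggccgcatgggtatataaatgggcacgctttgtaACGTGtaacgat

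The windows of *PUB19*, *LTI65* and *LEA7* each hold 4 cores and that of *HAI2* holds 5. Other genes with wide ratios have none, and the phosphatase *HAI1* and the lipid transfer gene *LTP4* are shown for that reason. The same holds for *MEE3* and *CSD2* on the lower side.
*HAI1* (chr5:23896940-23897239, minus strand): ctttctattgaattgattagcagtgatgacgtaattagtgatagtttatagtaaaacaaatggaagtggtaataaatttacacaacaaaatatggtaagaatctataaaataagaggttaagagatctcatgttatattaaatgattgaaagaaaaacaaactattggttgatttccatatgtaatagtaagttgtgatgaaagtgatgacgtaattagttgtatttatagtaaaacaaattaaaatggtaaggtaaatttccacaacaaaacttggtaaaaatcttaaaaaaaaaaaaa
*LTP4* (chr5:23925958-23926257, minus strand): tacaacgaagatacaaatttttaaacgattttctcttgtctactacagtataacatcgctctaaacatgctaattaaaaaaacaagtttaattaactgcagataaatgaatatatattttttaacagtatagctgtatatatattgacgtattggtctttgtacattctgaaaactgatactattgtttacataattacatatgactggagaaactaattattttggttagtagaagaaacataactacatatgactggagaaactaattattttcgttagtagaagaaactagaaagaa
*MEE3* (chr2:9259211-9259510, plus strand): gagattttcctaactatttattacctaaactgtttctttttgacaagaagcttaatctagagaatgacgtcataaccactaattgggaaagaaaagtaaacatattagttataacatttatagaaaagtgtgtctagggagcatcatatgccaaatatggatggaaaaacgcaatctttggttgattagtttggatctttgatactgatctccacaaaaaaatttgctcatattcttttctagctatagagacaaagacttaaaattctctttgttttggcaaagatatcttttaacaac
*CSD2* (chr2:12014112-12014411, plus strand): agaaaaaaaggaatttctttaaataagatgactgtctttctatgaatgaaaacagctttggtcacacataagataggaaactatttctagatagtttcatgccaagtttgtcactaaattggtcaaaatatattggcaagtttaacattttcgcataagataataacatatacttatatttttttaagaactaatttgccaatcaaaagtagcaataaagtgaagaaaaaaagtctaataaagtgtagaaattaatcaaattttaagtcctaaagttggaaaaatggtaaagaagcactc

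Across the genes kept, the share of promoters with an ACGTG core followed the ratio. It was 62.1% in the 174 genes at 10-fold or more higher in OX5-4, 39.7% from 4 to 10-fold, 38.6% from 2 to 4-fold and 20.5% in the 161 lower genes with a promoter. At least 2 separate cores were in 32.2% of the promoters of the first class, 4.97% of those of the lower genes and 6.40% of all kept. The longer ABRE form ACGTGTC, which contains the core, was in 21.3% of the first class, in 0 of the 161 lower genes and in 4.76% of all kept. The G-box CACGTG, which also contains the core and is bound by MYC and other bHLH factors as well, was in 27.0% of the first class, 2.48% of the lower genes and 8.22% of all kept. GCCGAC, a form of the drought-responsive element that DREB factors bind, was in 11.5% of the first class, 2.48% of the lower genes and 3.53% of all kept. Other forms of this element were not searched. The evening element AAAATATCT, a clock motif, was in 5.75% of the first class, 3.73% of the lower genes and 3.17% of all kept. GGCCCA, a motif common before genes of the translation machinery, ran the other way on the higher side, with 8.62% of the first class and 19.0% of all kept, and was in 6.83% of the lower genes. A match is a string of letters in a window and does not show binding.

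**Figure D4:**
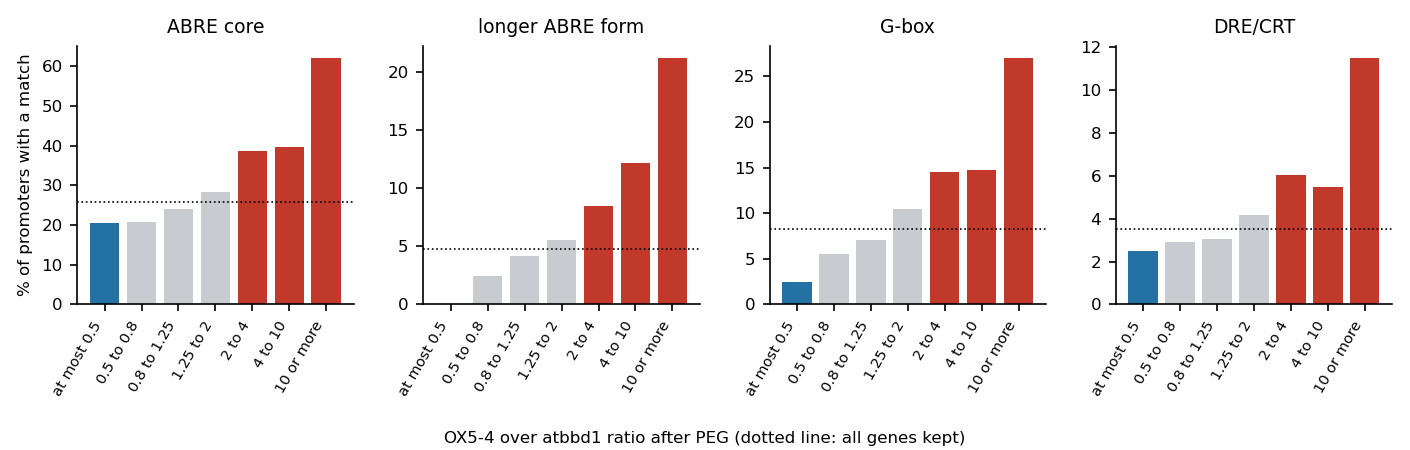
Percent of promoters (300 bases before the gene start) with a match to 4 motifs, by class of the OX5-4 over *atbbd1* ratio, with lower genes in blue, genes under 2-fold in grey and higher genes in red, and the share of all genes kept as a dotted line. For the ABRE core the bars climb to 62.1% in the class of 10-fold or more, against 25.8% over all genes kept.

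Within the ABA signaling chain, the phosphatases, some of the bZIP genes and their partners differed, while most receptor and kinase genes hardly did. Of 9 clade A PP2C genes, 7 were kept and all 7 were at least 2-fold higher in OX5-4 (median log2 3.19), 2 of them kept only through OX5-4. *HAB1* was at 31 FPKM in OX5-4, against 1.58 FPKM in *atbbd1* (19.6-fold higher, interval 15.6 to 25.1), *ABI2* at 27.7 FPKM in OX5-4, against 3.04 FPKM in *atbbd1* (9.11-fold higher, interval 7.52 to 11.1), and *HAB2* at 32.4 FPKM in OX5-4, against 12 FPKM in *atbbd1* (2.7-fold higher, interval 2.44 to 2.98). Of 14 ABA receptors, 7 were kept with a median of −0.04. None was 2-fold higher, and *PYL4* was 4.93-fold lower (3.61 to 6.9), with 1.89 FPKM in OX5-4, 9.32 FPKM in *atbbd1* and 3.53 FPKM in WT. The highest receptor ratio was that of *PYR1*, 1.26 (1.12 to 1.41).

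All 10 SnRK2 kinase genes were kept, with a median log2 ratio of 0.20, and *SNRK2.7*, kept only through OX5-4, alone passed 2-fold. It was at 4.95 FPKM in OX5-4, 0.33 FPKM in *atbbd1* and 1.06 FPKM in WT, 15-fold higher in OX5-4 than in *atbbd1* (7.45 to 35.8). Of the 3 strongly ABA-activated kinases, *SNRK2.2* and *SNRK2.3* had ratios of 1.08 (1.04 to 1.13) and 0.984 (0.898 to 1.08), and *OST1* (*SNRK2.6*) of 1.53 (1.28 to 1.84). With a common sum *SNRK2.3* turned to above 1. Of 9 ABF and AFP genes 8 were kept, 2 of them only through OX5-4, and 5 were 2-fold higher (median 2.24). *ABF3* was at 57.1 FPKM in OX5-4, against 8.6 FPKM in *atbbd1* (6.64-fold higher, interval 5.95 to 7.45), and *ABF2* at 31.4 FPKM in OX5-4, against 7.06 FPKM in *atbbd1* (4.45-fold higher, interval 3.94 to 5.05). *ABF1*, at 44.9 FPKM in OX5-4 and 37.6 FPKM in *atbbd1*, had a ratio of 1.19 (1.1 to 1.29). *AFP3* was at 62.8 FPKM in OX5-4, against 2.68 FPKM in *atbbd1* (23.4-fold higher, interval 18.2 to 30.7).

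Genes for making ABA and genes for removing it both had members that were higher in OX5-4. Of 12 synthesis and release genes 8 were kept, 3 of them 2-fold higher and 1 lower (median 0.74). The lower gene was kept only through *atbbd1*. *BGLU18*, which frees ABA from its glucose ester, was at 48.8 FPKM in OX5-4, 2.42 FPKM in *atbbd1* and 66.6 FPKM in WT, 20.2-fold higher in OX5-4 than in *atbbd1* (16.4 to 25), with WT above both. The carotenoid-cleaving *NCED3* was at 18.5 FPKM in OX5-4, against 2.69 FPKM in *atbbd1* (6.87-fold higher, interval 5.68 to 8.33), and the aldehyde oxidase *AAO3* was 2.19-fold higher (1.91 to 2.51). Of 7 catabolism and transport genes 4 were kept, all 4 only through OX5-4, so their shared direction follows from the filter. Among them, the ABA 8′-hydroxylase gene *CYP707A3* was at 2.19 FPKM in OX5-4, 0.49 FPKM in *atbbd1* and 0.87 FPKM in WT.

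Of 16 LEA and dehydrin genes 13 were kept, 5 of them only through OX5-4, and 12 were 2-fold higher in OX5-4 and none lower (median 2.75). *RAB18*, a dehydrin gene named here after its values were seen, was at 707 FPKM in OX5-4, 3.84 FPKM in *atbbd1* and 57.5 FPKM in WT, 184-fold higher in OX5-4 than in *atbbd1* (146 to 236), and it overlaps an annotated neighbour. The dehydrins *COR47* and *ERD10* were 3.43-fold and 4.6-fold higher, at 544 and 655 FPKM in OX5-4. The exception was the small dehydrin gene *HIRD11* (AT1G54410), at 1697 FPKM in OX5-4 and 1825 FPKM in *atbbd1*. *LEA18* and *GEA6* (*EM6*), a seed LEA protein, were listed at 0 in *atbbd1* and were at least 5.13-fold and 6.73-fold higher in OX5-4, which held 1.43 FPKM of *LEA18* and 1.65 FPKM of *GEA6*.

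All 11 cold and RD29 effector genes were kept, 2 of them only through OX5-4, and all were above 1, with 7 past 2-fold (median 1.19). *KIN1* was at 266 FPKM in OX5-4, against 8.38 FPKM in *atbbd1* (31.8-fold higher, interval 26.4 to 38.5), whereas its copy *KIN2* was at 2362 FPKM in OX5-4, against 1237 FPKM in *atbbd1* (1.91-fold higher, interval 1.87 to 1.95). Reads may be shared between them, as between *COR15A* and *COR15B*, which was 1.72-fold higher (1.68 to 1.76). Of 11 RD and ERD dehydration genes 7 were 2-fold higher (median 1.18). *RD20*, a caleosin of lipid bodies, was at 495 FPKM in OX5-4, 10.5 FPKM in *atbbd1* and 164 FPKM in WT, 47-fold higher in OX5-4 than in *atbbd1* (40.6 to 54.6). The sugar transporter *ERD6* went the other way without reaching 2-fold, with 16.2 FPKM in OX5-4 and 30.4 FPKM in *atbbd1*.

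In the transcription factor families of stress, some members had wide ratios and others lay near 1. Of 13 stress NAC genes 10 were kept, 1 of them only through OX5-4, and 7 were 2-fold higher (median 2.34). They were led by *NAC019* at 80.9 FPKM in OX5-4, against 2.42 FPKM in *atbbd1* (33.4-fold higher, interval 25.6 to 44.4). *ATAF2*, at 16.9 FPKM in OX5-4 and 15.1 FPKM in *atbbd1*, had a ratio of 1.12 (0.976 to 1.28). Of 16 class I HD-Zip genes 8 were kept and 3 were 2-fold higher (median 0.72). *HB-7* and *HB-12*, which are induced by ABA and act in feedback on it, were at 105 and 93.3 FPKM in OX5-4, against 2.52 and 3.46 FPKM in *atbbd1*, 41.8-fold and 27-fold higher. *HB5* was below 1 at a ratio of 0.893 (0.842 to 0.947).

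Of 16 stress MYB genes 11 were kept, 3 of them only through OX5-4, and 5 were 2-fold higher (median 0.55). *MYB96*, an activator of wax synthesis, was at 18.1 FPKM in OX5-4, against 4.51 FPKM in *atbbd1* (4.01-fold higher, interval 3.32 to 4.87). *MYB74* and *MYB112* were listed at 0 in *atbbd1* and stood at 1.33 and 1.48 FPKM in OX5-4, at least 9.92-fold and 7.98-fold higher. Of 16 DREB2 and ERF genes 12 were kept, 3 of them only through OX5-4, and 6 were 2-fold higher (median 1.01). *ERF53* was at 7.19 FPKM in OX5-4, against 0.70 FPKM in *atbbd1* (10.3-fold higher, interval 6.14 to 18.4). *DREB2A*, a factor that acts largely without ABA, was at 6.88 FPKM in OX5-4, against 3.78 FPKM in *atbbd1* (1.82-fold higher, interval 1.43 to 2.33), short of 2-fold.

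Part of the JA genes were higher in OX5-4 as well. Of 13 JA synthesis genes 11 were kept and 5 were 2-fold higher (median 0.75), with *AOC1*, an allene oxide cyclase, at 43 FPKM in OX5-4, against 6.82 FPKM in *atbbd1* (6.31-fold higher, interval 5.27 to 7.61). Of 12 JAZ repressors 7 were kept, all above 1 and 4 of them past 2-fold (median 1.1), led by *TIFY7* (*JAZ9*) at 7-fold (5.89 to 8.38). Of 11 signaling and output genes 8 were kept, all above 1 and 4 past 2-fold (median 1.77), 3 of which were kept only through OX5-4. Both the 4 and the median include *MYC2*, set to the 3-read floor in *atbbd1*, and without it the median would be under 2-fold. *MYC2* was at 8.04 FPKM in OX5-4 from 468 reads, listed at 0 in *atbbd1*, at 7.11 FPKM in WT after PEG and 3.51 FPKM in WT at 0 h. It overlaps the annotated neighbour AT1G32630, which was at 7.18 FPKM in OX5-4, 4.6 FPKM in *atbbd1* and 5.27 FPKM in WT after PEG, and how reads of overlapping genes were assigned was not tested, so no factor is given for *MYC2*. The other MYC genes listed had smaller ratios, above 1 in both cases, *MYC3* at 1.34-fold (1.21 to 1.48) and *MYC4* at 1.75-fold (1.3 to 2.39). The storage protein genes *VSP1* and *VSP2* were at 7.86 and 15.4 FPKM in OX5-4, against 0.18 and 0.23 FPKM in *atbbd1*. *VSP2* was at 1.34 FPKM in WT after PEG. Both storage protein genes, like *MYC2*, were kept only through OX5-4, so their direction follows from the filter.

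Defensins had a different place for WT. All 5 ethylene and JA defence genes kept of 10 were 2-fold higher in OX5-4 (median 6.06), 3 of them kept only through OX5-4, and WT exceeded both lines for 4 of the 5. *PDF1.2* was at 238 FPKM in OX5-4, 3.56 FPKM in *atbbd1* and 426 FPKM in WT, and *PDF1.3* at 63.9 FPKM in OX5-4, 0.38 FPKM in *atbbd1* and 153 FPKM in WT. Near-identical members of this family can share reads. Of 17 salicylic acid defence genes 13 were kept, with 3 higher, 1 lower and a median of 0.20, and WT lay between both lines for 4. Of the 3 higher genes, 2 were kept only through OX5-4. *PCC1*, a pathogen and clock-controlled gene, was 2.14-fold lower (1.8 to 2.57), at 13.7 FPKM in OX5-4, 29.3 FPKM in *atbbd1* and 83.9 FPKM in WT.

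Among genes of protective metabolism, part of the wax list was higher in OX5-4. Of 16 wax genes 14 were kept, 2 of them only through OX5-4, and 7 passed 2-fold (median 0.99). The wax ester synthase gene *WSD1* was at 30.3 FPKM in OX5-4, 0.31 FPKM in *atbbd1* and 6.97 FPKM in WT, 97.7-fold higher in OX5-4 than in *atbbd1* (53.7 to 194). The elongase gene *KCS2* was at 28.6 FPKM in OX5-4, against 0.46 FPKM in *atbbd1* (62.1-fold higher, interval 38 to 109), and overlaps annotated neighbours. *CER1*, of alkane formation, was at 66.4 FPKM in OX5-4, against 6.94 FPKM in *atbbd1* (9.57-fold higher, interval 8.65 to 10.6). *DEWAX* (AT5G61590), a repressor of wax genes, had a ratio of 0.774 (0.728 to 0.822). Of 9 lipid transfer genes 7 were kept, 4 of them only through OX5-4, and 5 were 2-fold higher (median 1.66), with *LTP3* and *LTP4* far above the others.

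Osmolyte genes differed by step. Of 6 galactinol and raffinose genes 4 were kept, 2 of them only through OX5-4, and 3 were 2-fold higher (median 1.61). *GolS2* was at 37.1 FPKM in OX5-4, against 0.45 FPKM in *atbbd1* (82.4-fold higher, interval 45.8 to 165). Of 9 proline genes 8 were kept, 3 of them 2-fold higher and 1 lower (median 0.22). The lower gene was kept only through *atbbd1*. *P5CS1*, the first enzyme of proline synthesis, was at 201 FPKM in OX5-4, 38.2 FPKM in *atbbd1* and 102 FPKM in WT, 5.25-fold higher in OX5-4 than in *atbbd1* (5 to 5.52). *ERD5* (*PRODH*), the first enzyme of proline breakdown, was at 0.29 FPKM in OX5-4, against 1.08 FPKM in *atbbd1* (3.72-fold lower, interval 1.91 to 8.18), from 11 and 40 reads. The detoxifying aldehyde dehydrogenase gene *ALDH7B4* was at 189 FPKM in OX5-4, against 20.2 FPKM in *atbbd1* (9.34-fold higher, interval 8.71 to 10.02). Of the 5 genes of its list 3 passed 2-fold, 1 of them kept only through OX5-4.

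Most senescence genes passed 2-fold, and a smaller part of the starch and water channel genes did, beside 7.07% higher over all genes kept. Of 11 senescence and chlorophyll breakdown genes 10 were kept, 5 of them only through OX5-4, and 8 were 2-fold higher (median 1.82). *ACD1* (*PAO*), which opens the chlorophyll ring, was at 120 FPKM in OX5-4, against 38.7 FPKM in *atbbd1* (3.1-fold higher, interval 2.91 to 3.3), while the chlorophyll b reductase gene *NYC1* was at 124 FPKM in OX5-4 and 130 FPKM in *atbbd1*. Of 13 starch breakdown genes 2 were 2-fold higher (median 0.09), the beta-amylase genes *BAM1* at 3.8-fold (3.46 to 4.17) and *BAM5* at 9.87-fold (6.64 to 15). Of these 2, 1 was kept only through OX5-4. Of 17 aquaporin genes 16 were kept and 3 were 2-fold higher (median 0.46), with *RD28* (*PIP2;3*) at 18.9 FPKM in OX5-4 and 3.04 FPKM in *atbbd1*. The vacuolar *DELTA-TIP* gene was lower without reaching 2-fold, at 204 FPKM in OX5-4 and 352 FPKM in *atbbd1*.

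**Figure D5:**
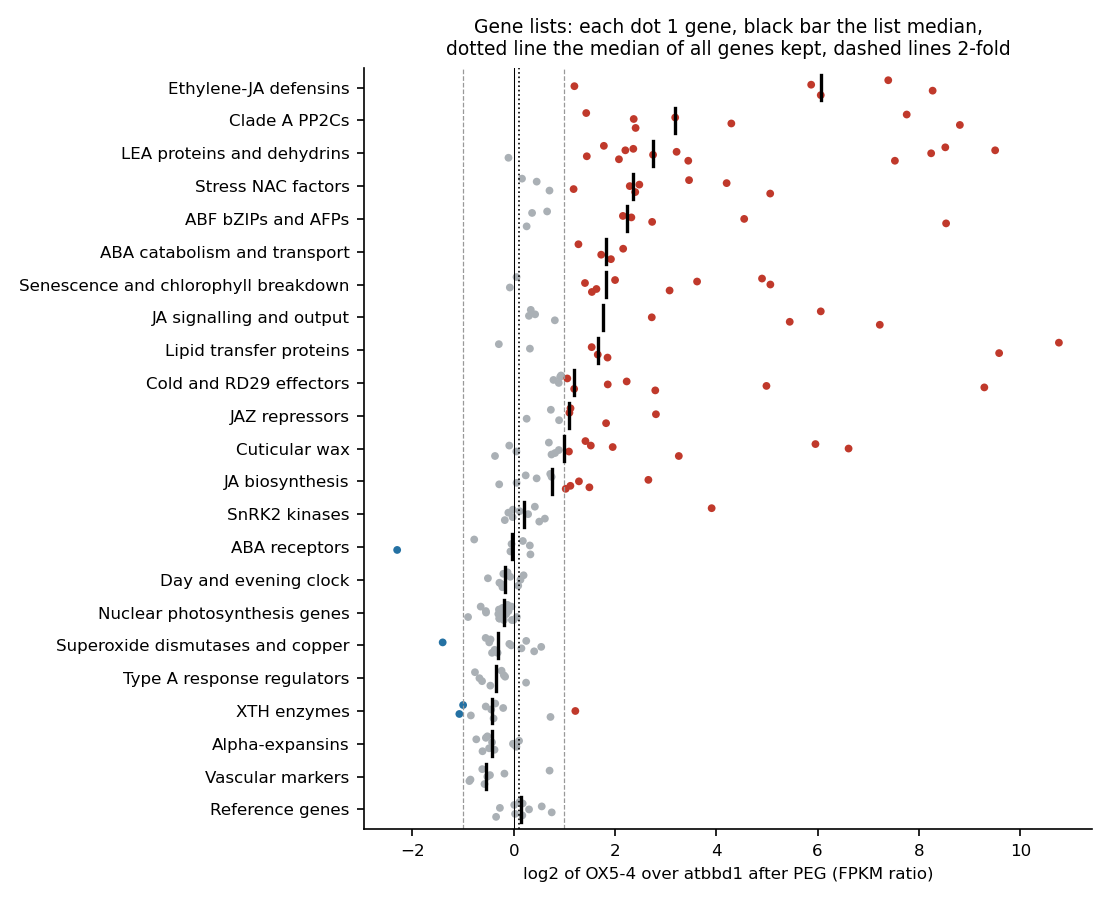
Log2 of the OX5-4 over *atbbd1* ratio after PEG for the kept members of 23 gene lists, 1 dot a gene, in red or blue past 2-fold, with the list median as a black bar, the median of all genes kept (0.11) as a dotted line and 2-fold as dashed lines. The upper lists reach far to the right, whereas receptors, SnRK2 kinases, day and evening clock, photosynthesis and cell wall lists gather around 0 or just left of it. Genes at 0 in *atbbd1*, *MYC2* among them, are drawn at their 3-read floor.

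Among genes of at least 10 FPKM, the ratios on the lower side were at most 6.76-fold. *MEE3*, a MYB-related factor of the RAD-like family, was at 2.18 FPKM in OX5-4, 14.7 FPKM in *atbbd1* and 5.42 FPKM in WT, 6.76-fold lower in OX5-4 than in *atbbd1* (4.53 to 10.5). *RL4* of the same family was at 18.2 FPKM in OX5-4, 40.2 FPKM in *atbbd1* and 16.5 FPKM in WT, 2.21-fold lower (1.87 to 2.61). These values prompted a look at the other genes annotated as RAD-like, so their count is no separate result beside the 1.05% of all genes that were lower. *RL5* was at 1.33 FPKM in OX5-4, 4.33 FPKM in *atbbd1* and 2.34 FPKM in WT, and *RL3* and *RL6* were kept only through *atbbd1*, at 4.26 and 1.7 FPKM there. *CSD2*, which encodes a copper/zinc superoxide dismutase of the chloroplast, was at 29.1 FPKM in OX5-4, 77 FPKM in *atbbd1* and 21.6 FPKM in WT, 2.65-fold lower in OX5-4 (2.39 to 2.93), with WT below both. Its copper chaperone *CCS* was lower within 2-fold, at a ratio of 0.681 (0.603 to 0.768).

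The other genes of the 15 lowest had various annotations. *TBL45*, of a family of wall acetyltransferases, was at 5.27 FPKM in OX5-4, against 16.2 FPKM in *atbbd1* (3.08-fold lower, interval 2.54 to 3.75), and *LRX3*, a wall extensin, was 2.44-fold lower (2.15 to 2.77). The amino acid permease *AAP2* was at 13.8 FPKM in OX5-4, against 36.2 FPKM in *atbbd1* (2.63-fold lower, interval 2.36 to 2.93). AT1G04040 and AT5G44020, which encode acid phosphatases of 1 subfamily, were 2.94-fold (2.67 to 3.25) and 2.21-fold lower (2.11 to 2.32). The most abundant gene of the 166, AT1G23130, of the polyketide cyclase and lipid transport superfamily, was at 211 FPKM in OX5-4, 472 FPKM in *atbbd1* and 236 FPKM in WT, 2.24-fold lower (2.14 to 2.33). For *PATL2*, *EXL5*, *PAR2*, AT2G37950 and *DIN10* the factors lay between 2.21 and 2.44, and *MES18*, a methyl esterase, was 2.89-fold lower (2.28 to 3.7). AT1G04040, AT5G44020, *MES18* and *DIN10* overlap annotated neighbours. Wider ratios occurred below 10 FPKM, and a pair of them is named here after the values were seen. AT1G22690, a gibberellin-regulated family gene that overlaps an annotated neighbour, was at 0.44 FPKM in OX5-4, against 6.93 FPKM in *atbbd1* (15.8-fold lower, interval 6.9 to 43.7), and AT1G75945, of unknown function, was at 0.86 FPKM in OX5-4, against 8.55 FPKM in *atbbd1* (9.94-fold lower, interval 4.58 to 25.7).

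Growth and photosynthesis lists lay a little below the median of all genes without many calls. Of 24 nuclear photosynthesis genes none passed 2-fold, and 23 were below 1 (median −0.20). With the libraries scaled to a common sum 21 were, and with the median shift divided out all 24. The Rubisco small subunit gene *RBCS1B* had the lowest ratio, at 343 FPKM in OX5-4, against 641 FPKM in *atbbd1*, 1.87-fold lower, in a family whose copies can share reads. All 11 alpha-expansins were kept, 2 of them only through *atbbd1*. Of the 11, 8 were below 1, against 38.4% of all genes kept, and none passed 2-fold (median −0.43). *EXPA1* was at 133 FPKM in OX5-4 and 203 FPKM in *atbbd1*. With the median shift divided out 11 of the alpha-expansins were below 1, and with a common sum 7. Of 14 XTH wall enzymes 10 were kept, 8 below 1, 2 at least 2-fold lower and 1 higher (median −0.42). The higher gene was kept only through OX5-4, and 1 of the 2 lower genes only through *atbbd1*. *XTH6* was 2.11-fold lower (1.91 to 2.32), and *XTH16* was at the threshold from 11 reads in OX5-4 and 21 in *atbbd1*. All 8 type A response regulators of cytokinin were kept, and 7 were below 1 with none past 2-fold (median −0.35).

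The lowest median of the 54 lists was that of vascular markers, at −0.55. Of 10, 8 were kept, 1 of them only through *atbbd1*, and 7 were below 1, none by 2-fold. Among these 7, the phloem sucrose transporter *SUC2* was at 23.5 FPKM in OX5-4, against 35.1 FPKM in *atbbd1*. The phloem lectin *PP2-A1* was at 31.3 FPKM in OX5-4 and 56.6 FPKM in *atbbd1*. Summed over all 10, vascular markers came to 112 FPKM in OX5-4, 163 FPKM in *atbbd1* and 90.8 FPKM in WT, and *AKT2*, a phloem potassium channel, was the member above 1. In bulk leaf RNA, fewer cells of a type and less RNA per cell cannot be told apart. Guard cell markers had a median of −0.01 with 3 of 12 kept, a sign that turned with a common sum, and of 7 trichome markers 1 was kept, *TTG1*, at a ratio of 1.04 (0.919 to 1.17). Reference genes had a median of 0.14 with none of 10 past 2-fold, although *UBQ10* was 1.68-fold higher (1.64 to 1.72) and *ACT2* was at 90.5 FPKM in OX5-4 and 115 FPKM in *atbbd1*.

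Ratios of clock genes are read against the 61.4% of all genes kept that lay above 1. Of 9 morning genes 6 were kept, all above 1 and 3 past 2-fold (median 0.95), with *CCA1* at 6.33 FPKM in OX5-4, 1.95 FPKM in *atbbd1* and 3.55 FPKM in WT, 3.25-fold higher in OX5-4 than in *atbbd1* (2.56 to 4.16), and *PRR9* 3.54-fold higher (2.78 to 4.56). Of 11 day and evening genes 10 were kept, with none past 2-fold and 7 below 1 (median −0.16), and *PCL1* (*LUX*) had the lowest ratio, 0.702 (0.641 to 0.768). Among light signaling genes, *PIF3* was 2.76-fold higher (2.29 to 3.34), and *HYH* was at 0.88 FPKM in OX5-4 and 2.2 FPKM in *atbbd1*, from 12 and 29 reads. *HYH* was kept only through *atbbd1*.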

How the data were processed

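Per the labels and methods, mRNA from leaves of 3-week-old plants was sequenced, 1 library per condition, and the submitters' processing notes name TopHat2, Cufflinks and TAIR10, while the study's methods name another aligner. The authors deposited gene FPKM values to 2 decimals, with no counts, and no source used here says whether counting used strand. Reads were recovered as FPKM times union exon length (TAIR10.1) times an estimated library total. Each total was picked so that low values came out whole. At these totals 99.2% of low values did so (within 0.15), against a median over other totals of 24.2 to 25.1%, depending on the library. Ratios of the 15737 genes were taken from FPKM with no pseudocount. Rows of organelle genes are included, with ratios but no intervals. Python 3.11.15, pandas 2.3.3 and scipy 1.17.1 were used, and the calculation was tested on simulated data.

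Members and gene lists were chosen with earlier results of these data known. Named genes are the 15 highest and 15 lowest ratios at 10 FPKM or more, the 5 most abundant higher genes, up to 3 members at each end of each list, and the targeted gene. Alternatives were other filters, pseudocounts, scalings, a 4-fold threshold and an interval rule. Columns for 4 libraries were used and none was left out. Overlapping and near-identical genes can share reads. FPKM compares genes per length, and rounding limits values near 0. Intervals and the 3-read floor cover counting error only.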

Additional observations from a re-analysis of the deposited data

How the results depend on the processing

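The counts of genes at least 2-fold higher and lower in OX5-4 than in *atbbd1* (1112 and 166), and the share of both with WT in between (87.8%), moved with the threshold and with the handling of low values. Without a filter they were 1858, 670 and 73.7%, and with 5 FPKM required they were 639, 43 and 93.3%. A pseudocount of 1 FPKM gave 734, 56 and 93.8%, and a 4-fold threshold 412, 21 and 95.2%. A pseudocount of 0.1 FPKM gave 1065, 158 and 88.5%, scaling to a common sum 1172, 161 and 88.0%, and requiring the interval beyond 1 gave 1094, 149 and 88.4%. Dividing OX5-4 by 1.08 (median of ratios) gave 948, 237 and 86.5%. Of 304 named genes, 16 with ratios near 1 changed sign under the median of ratios and 7 under a common sum. With no replicates, leaving one out and paired fits could not be run. No paired analysis was possible because each group has 1 library. Depth limits genes with few reads, since 64 of the higher genes rest on 1 to 3 reads in *atbbd1* and 39 on none.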

Other observations

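Anthocyanin regulation and heat shock genes also differed between OX5-4 and *atbbd1*. *PAP1*, a MYB activator of anthocyanin synthesis, was at 5.30 FPKM in OX5-4, 0.21 FPKM in *atbbd1* and 2.06 FPKM in WT after PEG, 25.2-fold higher in OX5-4 than in *atbbd1* (9.47 to 93.4). Of the 7 flavonoid genes kept of 16, 3 were at least 2-fold higher and 1 lower, *FLS1*, a flavonol synthase, at 2.44-fold (1.29 to 4.79), while the chalcone synthase gene *TT4* was at 5.04 FPKM in OX5-4 and 4.98 FPKM in *atbbd1*. The lower gene was kept only through *atbbd1*, and 1 of the 3 higher genes only through OX5-4. Of 13 heat shock genes 7 were kept, 4 of them only through OX5-4 (under 1 FPKM in *atbbd1*), and 5 were 2-fold higher (median log2 1.2). *HSFA6B* was at 3.83 FPKM in OX5-4, and 1 read gave its 0.04 FPKM in *atbbd1* (ratio 95.8, 18.1 to 4096).

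Of the nutrient lists, 2 of 6 iron genes kept were 2-fold higher, 1 of them kept only through OX5-4, and none of 6 sulfur and 2 phosphate genes passed 2-fold. The iron store *FER1* was at 59.0 FPKM in OX5-4, 9.65 FPKM in *atbbd1* and 24.1 FPKM in WT, 6.11-fold higher in OX5-4 than in *atbbd1* (5.32 to 7.05), and its relative *FER3* had a ratio of 0.651 (0.552 to 0.768). The nitrate transporter *NRT1.1* was at 7.21 FPKM in OX5-4, against 15.7 FPKM in *atbbd1* (2.18-fold lower, interval 1.89 to 2.52). Of 18 Aux/IAA genes kept, 3 were 2-fold higher (median 0.20), led by *IAA14* at 3.88-fold (2.89 to 5.33), and WT lay between both lines for 3 of the 18. Of 20 glucosinolate genes 1, the regulator *MYB51*, was 2-fold higher (median 0.19), against 7.07% of all genes kept.

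For a number of genes WT lay outside both lines. The chitinase gene AT2G43570 was at 20.9 FPKM in OX5-4, 0.36 FPKM in *atbbd1* and 25.5 FPKM in WT, and the linker histone gene HIS1-3 at 12.3 FPKM in OX5-4, 5.54 FPKM in *atbbd1* and 22.4 FPKM in WT. *LOX2*, a lipoxygenase of JA synthesis, was at 231 FPKM in OX5-4, 113 FPKM in *atbbd1* and 245 FPKM in WT. WT exceeded both lines in these 3 genes, which were chosen after their values were seen.

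Further families were looked up after the values were seen. Of 30 arabinogalactan protein genes 19 were kept, 13 of them below 1, against 38.4% of all genes kept, with 2 higher and 2 lower by 2-fold (median −0.60). Of these, 1 higher gene was kept only through OX5-4 and 1 lower gene only through *atbbd1*. All 15 tubulin genes were kept and 14 were below 1, none by 2-fold (median −0.19). Ribosomal protein genes were picked by product name, with cytosolic and organellar ones together. Of 329 kept, 267 were below 1 and 4 were 2-fold higher (median −0.20), 2 of these 4 kept only through OX5-4. Of 76 organelle genes with a ratio, 4 were higher and 5 lower by 2-fold, with a median of −0.16 over 62 chloroplast genes and 0.08 over 14 mitochondrial genes.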
